A study of Homo sapiens with 8 samples.

Results

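Box C/D small nucleolar RNAs (snoRNAs) were followed through 4 groups of U2OS cells, an established human osteosarcoma line. They were taken as every entry of the deposited table whose symbol is SNORD and a number, with the imprinted repeat families SNORD113 to SNORD116 left out. This gave 178 of 26902 entries, between 48 and 237 nt long with a median of 79 nt. The 4 groups were footprint libraries of QKI7 cells, footprint libraries of vector cells, input libraries of QKI7 cells and input libraries of vector cells, with 2 libraries each. QKI7 cells overexpressed QKI7, a splice isoform of the STAR-family protein QKI, and vector cells carried the empty vector. All cells, the vector cells included, had been given 0.5 mM sodium arsenite (NaAsO2) for 1 h, so no group was free of this stress. Input libraries came from total RNA depleted of ribosomal RNA, and footprint libraries from fragments of 17 to 34 nt recovered with pelleted ribosomes. The labels say neither whether the overexpressing cells were 1 clone or a pool nor whether the 2 libraries of a group were separate cultures, and the p-values therefore cover only library-to-library spread, which may be technical.

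Box C/D snoRNAs carry the short C and D motifs and form particles with fibrillarin, NOP56, NOP58 and SNU13. Most of them pair with ribosomal RNA or spliceosomal U6 RNA and direct fibrillarin to methylate a ribose there, and a few, among them U3, U8, U13, U14 and U22, act in the cleavage and folding of pre-ribosomal RNA. Human box C/D snoRNAs are mostly cut out of introns of host genes, many of which encode ribosomal proteins or serve as non-coding hosts such as GAS5 and the SNHG genes, while U3 is transcribed from its own genes. SnoRNAs are not translated, so a footprint-sized fragment of one is a fragment of RNA that went with the ribosome pellet or the gel slice, not a measure of translation.

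Many host genes of snoRNAs start transcription in a tract of pyrimidines, and for this reason the starts of 8 host genes of the snoRNAs described here are shown. Each window holds 35 bases before and 15 bases from the start annotated by RefSeq (GRCh38.p14), on the strand of the gene, and capitals mark a C followed by at least 4 bases that are each C or T, beginning within 5 bases of the start.
SNHG1: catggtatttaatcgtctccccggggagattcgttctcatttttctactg
SNHG5: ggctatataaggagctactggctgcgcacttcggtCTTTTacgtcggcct
RPS12: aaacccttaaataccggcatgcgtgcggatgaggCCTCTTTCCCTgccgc
EIF4A2: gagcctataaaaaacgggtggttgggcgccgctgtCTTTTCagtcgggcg
RPL13A: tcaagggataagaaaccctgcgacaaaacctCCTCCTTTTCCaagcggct
RPS3A: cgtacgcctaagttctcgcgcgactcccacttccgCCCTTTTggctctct
NCL: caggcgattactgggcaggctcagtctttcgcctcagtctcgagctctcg
GAS5: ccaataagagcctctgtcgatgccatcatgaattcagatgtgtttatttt
These windows lie at chr11:62855871-62855920 on the minus strand (SNHG1), chr6:85678719-85678768 on the minus strand (SNHG5), chr6:132814534-132814583 on the plus strand (RPS12) and chr3:186783542-186783591 on the plus strand (EIF4A2). The others lie at chr19:49487573-49487622 on the plus strand (RPL13A), chr4:151099593-151099642 on the plus strand (RPS3A), chr2:231464470-231464519 on the minus strand (NCL) and chr1:173869031-173869080 on the minus strand (GAS5). A tract of this kind was found in 35.6% of 104 windows of 74 host genes, against 21.1% of the 35116 windows of all genes. The search ran on the strand of the gene only, and a match or its absence describes these letters and nothing else.

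The overexpressed gene was checked first. QKI stood at 27.0 and 28.1 TPM in QKI7 footprints, against 0.57 and 0.66 TPM in vector footprints. Its input level was 1749 and 1580 TPM in QKI7 cells, against 3.01 and 3.45 TPM in vector cells. TPM, a length-corrected transcript share, divides reads by transcript length and by the library's total, so each value is a share of its library, and the read depth behind it is unknown. Footprint libraries were mostly ribosomal RNA, which took 96.8% of TPM in both QKI7 footprints and 97.3% in both vector footprints. Inputs were mostly 7SL RNA (46.7% to 49.0% of TPM), spliceosomal RNAs (30.9% to 35.0%) and spike-ins (13.1% to 15.9%). Of the mesenchymal and bone markers listed, VIM was at 74.6 to 102.3 TPM in inputs, and COL1A1, SPARC, LGALS1 and CALD1 were above 10 TPM. COL1A2 (0.03 to 0.07 TPM) and RUNX2 (0.27 to 0.72 TPM) were low. Of the markers of other cell types, epithelial KRT18 was at 28.5 to 35.3 TPM and neural TUBB3 at 1.41 to 1.95 TPM. EPCAM, CDH1, KRT19, HBB, CD74, SOX10 and ELAVL4 were under 1 TPM, and the blood-cell marker PTPRC was at 0.01 or 0.02 TPM. Replicate libraries correlated at r = 0.990 to 0.995 over the 5806 entries tested and at 0.907 to 0.941 over the 69 box C/D snoRNAs among them, which share host genes and are not independent.

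More box C/D snoRNAs were seen in footprint-sized reads than in inputs: 64 of the 178 were above 0 in at least 1 footprint library and in no input, 11 were above 0 in inputs alone and 82 in both. Of the 178, 124 and 120 were above 0 in the QKI7 footprint libraries, against 51 and 52 in the QKI7 inputs, and 100 and 113 in the vector footprint libraries, against 42 and 46 in the vector inputs. All 4 inputs listed 85 of them at 0, and 41 of these 85 were above 0 in every footprint library. The reverse, above 0 in every input and listed at 0 in every footprint, held for 1 snoRNA, SNORD132. A further 21 were at 0 in all 8 libraries.

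The inputs were led by a small set of long members. Only SNORD3A, SNORD141A and SNORD141B reached 10 TPM in every input library. SNORD3A, the main copy of U3 (chr17:19188016-19188232, 217 nt), was at 175.3 and 203.6 TPM in QKI7 inputs, against 137.1 and 137.1 TPM in vector inputs. SNORD141A and SNORD141B, for which the table gives identical values in all libraries so that the copies cannot be told apart, were each at 95.5 and 92.6 TPM in QKI7 inputs, against 147.6 and 131.2 TPM in vector inputs. Their input groups did not overlap, but they were not among the members called lower in QKI7 inputs by limma. In both types of cell these 3 entries made up most of the input signal: without all U3 and SNORD141 copies the box C/D sum was 68.4 and 50.0 TPM in QKI7 inputs, against 47.4 and 50.1 TPM in vector inputs, and the groups overlapped.

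Footprint signal was also concentrated, but in other members. Averaged over the 4 footprint libraries, 3 snoRNAs held 54.5% of the box C/D TPM and 10 held 70.4%. SNORD31, a guide of 28S ribosomal RNA methylation within SNHG1 (chr11:62853326-62853393), was highest, with 390.9 and 332.3 TPM in QKI7 footprints and 249.5 and 286.1 TPM in vector footprints. Its inputs held 0 and 0.52 TPM in QKI7 cells and were listed at 0 in vector cells, so it was visible almost entirely as short fragments.

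SNORD50A, another 28S guide, within SNHG5 (chr6:85677294-85677368), had 251.5 and 245.8 TPM in QKI7 footprints, against 226.2 and 218.5 TPM in vector footprints. SNORD101, within RPS12 (chr6:132815307-132815379), had 83.5 and 89.3 TPM in QKI7 footprints, against 55.3 and 41.9 TPM in vector footprints. Both were listed at 0 in all 4 inputs. U3 differed from these in being abundant in both kinds of library, with 309.9 and 302.9 TPM in QKI7 footprints, against 176.9 and 188.8 TPM in vector footprints. After these 4, the next level was 32.8 TPM (SNORD82, mean of the 4 footprint libraries), followed by SNORD2 at 30.2 TPM and SNORD30 at 28.5 TPM, whose libraries overlapped with one another.

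**Figure D1:**
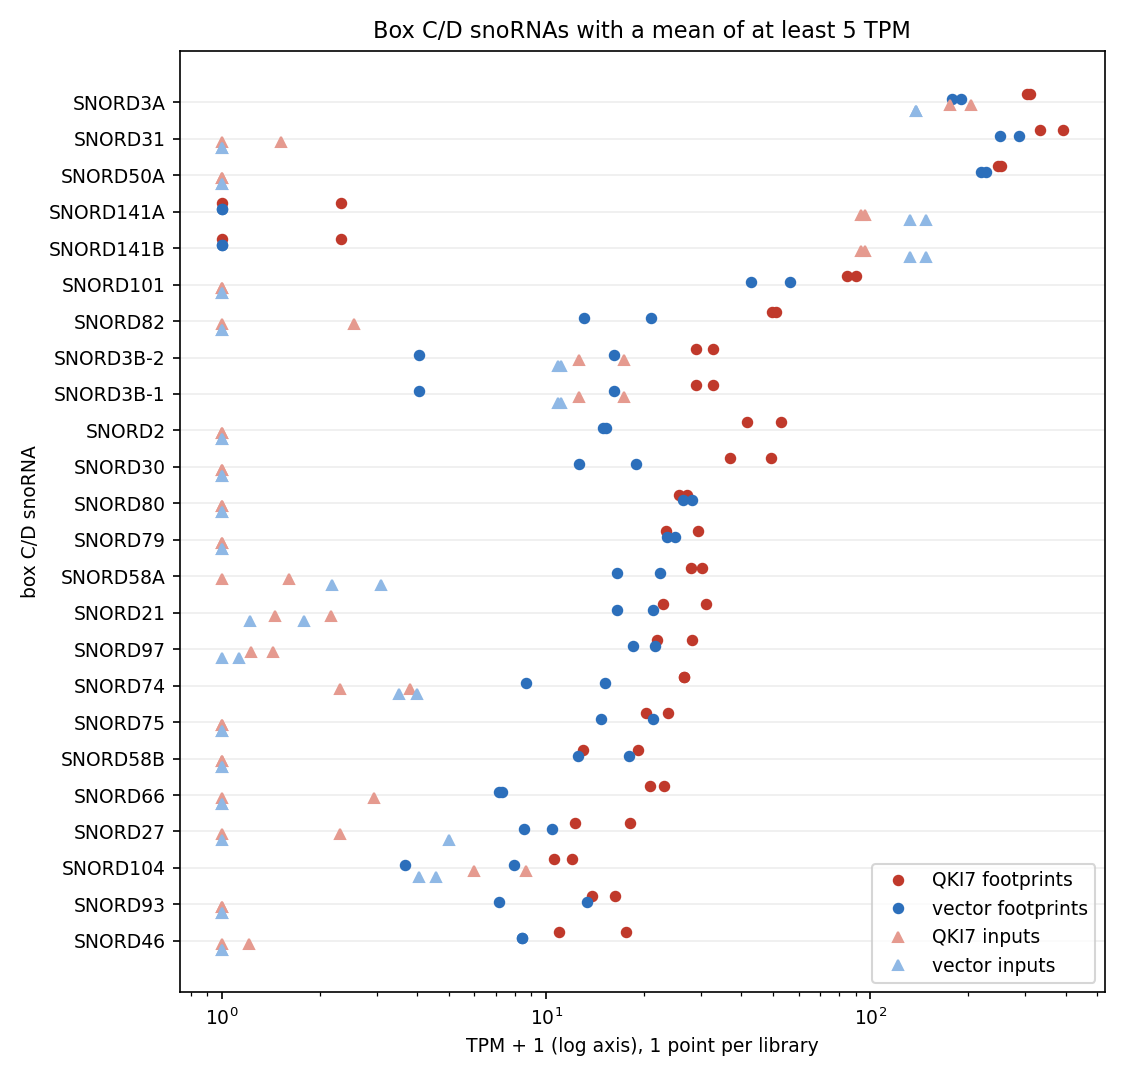
TPM + 1 on a log axis (x) of each box C/D snoRNA averaging 5 TPM or more across all 8 libraries (y), with 1 point per library; circles are footprints and triangles inputs, red QKI7 and blue vector. SNORD31, SNORD50A and SNORD101 lie far right in footprints and at or near 0 TPM in inputs, SNORD141A and SNORD141B do the opposite, and SNORD3A is high in both.

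Detection went with length. Of the 90 members under 80 nt, 50 were above 0 in all 4 footprints and 2 in all 4 inputs. Of the 52 members of 80 to 100 nt these numbers were 19 and 6, and of the 36 longer members they were 13 and 11. Across the 178 members, which share libraries and in part host genes, length and mean footprint TPM had a Spearman rho of -0.26, and length and mean input TPM one of 0.16. Reads were 51 nt long in all libraries, and the treatment of short transcripts in the conversion to TPM is not stated in the labels; the part of length in the difference between library types was not tested.

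Footprints were set against inputs with limma on log2(TPM + 1), a scale that understates the change of low values, for the 5806 entries averaging 1 TPM or more; 69 of the 178 snoRNAs passed this minimum and 109 did not. SNORD35B, at 1.04 TPM, was the lowest inside it and SNORD14B, at 0.99 TPM, the highest outside. Of the 28 tested members listed at 0 in all inputs, each had to pass through its footprints, so the counts describe these 69 members and not all box C/D snoRNAs. Others among the remaining 41, such as SNORD31, SNORD46 and SNORD97, had every input under 1 TPM and also passed only through their footprints. The minimum thus partly set the counts and medians of the 41 as well, and all are given as a description. Leaving these 28 aside, 31 of the other 41 were higher and 2 lower in footprints than in inputs in QKI7 cells at an adjusted p under 0.05, and 24 were higher and 3 lower in vector cells. With them, 59 of the 69 were higher and 2 lower in QKI7 cells, and 51 higher and 3 lower in vector cells. The backgrounds were 7.42% higher and 90.8% lower among all entries tested in QKI7 cells, and 7.7% higher and 89.9% lower in vector cells. The median log2 difference was 2.12 over the 41 members, 2.63 over the 69 and -1.97 over all entries in QKI7 cells, and 1.31, 2.00 and -1.81 in vector cells.

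The direction of a footprint-to-input difference depends on how libraries of such different make-up are scaled, and the size of the members' shift moved with it. Under median-of-ratios scaling the median of all entries turned to 0.95 in QKI7 and 1.08 in vector cells, and that of the members was 3.98 and 3.03. With TPM rescaled after removal of ribosomal, 7SL and spliceosomal RNA and spike-ins, the medians were 5.27 for members and -2.10 for all entries in QKI7 cells, and 3.38 and -1.96 in vector cells. The members' median lay above that of all entries under each of these scalings and under quantile normalization. Many members passed the minimum only through their footprints under each of them, so this order was partly built in and is given as a description.

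By size, the footprint excess over inputs was led by SNORD31, with a log2 difference of 8.20 in QKI7 and 8.07 in vector cells. SNORD50A, SNORD101, SNORD80 and SNORD79 came next, with inputs listed at 0, as were the vector inputs of SNORD31. All of these passed the minimum only through their footprints and could only come out higher. Their differences are therefore given as a description with no test. The differences were 7.96 in QKI7 and 7.80 in vector cells for SNORD50A and 6.45 and 5.62 for SNORD101. SNORD80 and SNORD79, guides of 28S methylation within GAS5, were at 4.72 and 4.71 in QKI7 cells and at 4.77 and 4.60 in vector cells. In the opposite direction SNORD141A, with SNORD141B identical, had 1.32 and 0 TPM in QKI7 footprints and was listed at 0 in both vector footprints. Its log2 difference was -5.96 in QKI7 and -7.13 in vector cells. SNORD141A passed the minimum only through its inputs, so this too is given as a description with no test. The third member lower in vector footprints was SNORD63, a 28S guide within HSPA9, at 0.97 and 0.47 TPM in vector footprints, against 3.06 and 1.79 TPM in vector inputs (limma, log2 difference -0.98, adjusted p = 0.032).

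QKI7 cells had more box C/D signal in footprint-sized reads than vector cells. The summed level was 1814 and 1710 TPM in QKI7 footprints, against 1148 and 1166 TPM in vector footprints, a ratio of means of 1.52. The groups did not overlap, although an exact permutation test on groups of this size has 0.333 as its smallest two-sided p. In inputs the sums overlapped, at 458.3 and 471.5 TPM in QKI7 cells and 499.4 and 470.0 TPM in vector cells. The part of footprint TPM outside ribosomal RNA moved with the construct too, at 3.15% and 3.21% in QKI7 footprints, against 2.68% and 2.67% in vector footprints. As a share of that part, box C/D snoRNAs made up 5.76% and 5.33% in QKI7 footprints, against 4.28% and 4.37% in vector footprints, a ratio of 1.28. In bulk libraries of this kind, more snoRNA per ribosome pellet and less of the other RNA cannot be told apart.

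Across single members, 16 of the 69 tested were higher and 1 was lower in QKI7 footprints at an adjusted p under 0.05 (limma), with backgrounds of 3.6% higher and 4.6% lower among all 5806 entries. At an unadjusted p under 0.05 the backgrounds were 8.54% higher and 10.7% lower. The counts of lists given next are read beside these shares and the median over all entries of 0.01. The median log2 change of the 69 was 0.59. Both QKI7 footprints lay above both vector footprints for 42 of the 69, against a background of 30.4% of entries, and below for 2 of the 69, against 22.4%. Rescaling to RNA other than ribosomal, 7SL, spliceosomal and spike-in RNA tested 152 members and called 16 higher and 7 lower, beside 610 higher and 1532 lower of 16831 entries. Quantile normalization called 10 of the 69 higher and 3 lower, beside 227 higher and 314 lower of 5806 entries. The members' median stayed positive under both, at 0.41 and 0.59, against -0.06 and -0.01 for all entries. Median-of-ratios scaling called 20 of the 69 higher and 1 lower, beside 365 higher and 182 lower of 5771 entries.

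**Figure D2:**
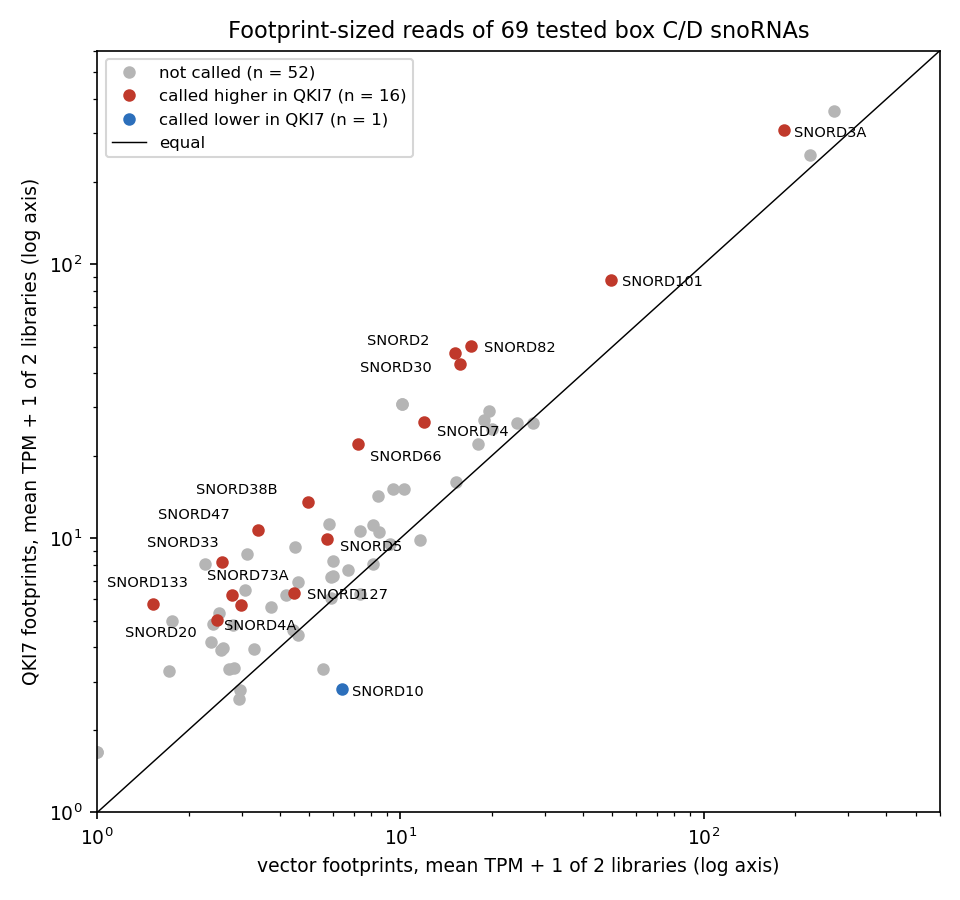
Mean TPM + 1 in QKI7 footprints (y) against that in vector footprints (x), both on log axes, for the 69 tested box C/D snoRNAs, with 2 libraries behind each mean. The 16 members called higher (red) lie above the line of equal level, from SNORD133 at low to SNORD3A at high level, and SNORD10 (blue) lies below it.

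Among the snoRNAs of pre-ribosomal RNA processing, 4 of 13 were tested and 1, U3, was called higher in QKI7 footprints and 0 lower (limma; 4 and 0 at an unadjusted p under 0.05), with a median log2 change of 1.36. With the identical SNORD3B copies counted once, 3 were tested and the median was 0.79. SNORD3A rose by 0.74 ± 0.10 on the log2(TPM + 1) scale (limma, 2 against 2 libraries, adjusted p = 0.00423). The identical copies SNORD3B-1 and SNORD3B-2 were each at 27.9 and 31.7 TPM in QKI7 footprints, against 15.2 and 3.05 TPM in vector footprints, and the wide vector spread went with an adjusted p of 0.067 (limma, log2 change 1.93 ± 0.52).

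SNORD118, the U8 RNA needed for the maturation of 5.8S and 28S ribosomal RNA (chr17:8173452-8173588), was listed at 0 in all 4 inputs. It had 2.94 and 4.70 TPM in QKI7 footprints, against 2.39 and 1.23 TPM in vector footprints, and did not pass the test (limma, log2 change 0.79 ± 0.21, adjusted p = 0.0615). U13, U14 and U22 lay below the minimum for testing. SNORD13, the U13 RNA, was above 0 in 1 of the 4 footprint libraries, a vector one at 0.26 TPM, while its inputs held 1.23 and 1.35 TPM in QKI7 cells and 1.51 and 1.10 TPM in vector cells. Among the 5 U14 copies, SNORD14B was highest, at 1.83 and 1.76 TPM in QKI7 footprints and at 0 and 2.50 TPM in vector footprints, with overlap. SNORD22, the U22 RNA, lay between 0.62 and 0.96 TPM in all footprints.

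The list of 18S ribosomal RNA methylation guides used here, which may not be complete, had 17 of 38 members tested. Of these, 5 were higher and 0 lower in QKI7 footprints (limma), with a median log2 change of 0.62. At an unadjusted p under 0.05 the counts were 10 and 0. SNORD33, within RPL13A (chr19:49490617-49490699), was at 7.5 and 6.92 TPM in QKI7 footprints, against 0.72 and 2.42 TPM in vector footprints (limma, log2 change 1.76 ± 0.30, adjusted p = 0.01). SNORD66, within EIF4G1 (chr3:184325696-184325771), was at 19.9 and 22.1 TPM in QKI7 footprints, against 6.15 and 6.30 TPM in vector footprints (1.60 ± 0.40, adjusted p = 0.0483). The 2 groups lay well apart and close within themselves for SNORD66.

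SNORD82, within NCL (chr2:231460368-231460442), was at 50.2 and 48.7 TPM in QKI7 footprints, against 12.1 and 20.1 TPM in vector footprints (limma, log2 change 1.60 ± 0.39, adjusted p = 0.044). The calls of SNORD66 and SNORD82 were each lost in 6 of 8 fits that left out 1 library, with a highest adjusted p of 0.156 and 0.209. The other listed 18S guides called higher were SNORD20, also within NCL, by 1.08, and SNORD4A, within RPL23A, by 0.98 on the log2 scale.

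The list of 28S or 5.8S methylation guides used here, which may not be complete, had 30 of 58 members tested. Of these, 4 were higher and 0 lower in QKI7 footprints (limma), with a median log2 change of 0.45. At an unadjusted p under 0.05 the counts were 13 and 1. SNORD47, within GAS5 (chr1:173864369-173864445), was at 7.89 and 11.6 TPM in QKI7 footprints, against 3.62 and 1.16 TPM in vector footprints (limma, log2 change 1.74 ± 0.31, adjusted p = 0.0117). SNORD30, within SNHG1 (chr11:62853663-62853732), was at 35.9 and 48.5 TPM in QKI7 footprints, against 11.6 and 17.9 TPM in vector footprints (1.47 ± 0.19, adjusted p = 0.00359). SNORD38B was at 14.3 and 10.8 TPM in QKI7 footprints, against 4.28 and 3.65 TPM in vector footprints (1.44 ± 0.11, adjusted p = 0.000435).

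SNORD74, within GAS5 (chr1:173867674-173867745), was at 25.7 and 25.6 TPM in QKI7 footprints, against 14.2 and 7.69 TPM in vector footprints (limma, log2 change 1.21 ± 0.28, adjusted p = 0.0394). Its call was lost in 5 of 8 fits that left out 1 library, with a highest adjusted p of 0.153, and that of SNORD47 in 1, without the second QKI7 footprint library (adjusted p = 0.0572). Some abundant 28S guides did not pass: the limma log2 change was 0.43 ± 0.18 for SNORD31 (adjusted p = 0.255), 0.16 ± 0.07 for SNORD50A (0.273) and -0.05 ± 0.06 for SNORD80 (0.892). The groups did not overlap for SNORD31 and SNORD50A and did overlap for SNORD80.

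The lists may not be complete, so a member outside them can still be a guide of ribosomal RNA. Of the called members outside these lists, SNORD133, within LARP4 (chr12:50456571-50456786), had the largest log2 change. It was at 4.70 and 4.86 TPM in QKI7 footprints, against 0.33 and 0.73 TPM in vector footprints (limma, 1.93 ± 0.13, adjusted p = 0.000171), a ratio of mean TPM of 9.02. SNORD2, within EIF4A2 (chr3:186784796-186784865), was at 52.0 and 40.7 TPM in QKI7 footprints, against 13.9 and 14.3 TPM in vector footprints (1.64 ± 0.10, adjusted p = 0.000159). SNORD73A, within RPS3A (chr4:151103827-151103891), was at 5.42 and 5.01 TPM in QKI7 footprints, against 1.57 and 2.01 TPM in vector footprints (1.16 ± 0.08, adjusted p = 0.000176).

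SNORD2 and SNORD73A kept an adjusted p under 0.05 in each of the alternatives that gave them a value, and SNORD133 in all but the rescaled one (0.0671). However, SNORD73A, SNORD133 and SNORD20 reached the minimum of 1 TPM only through their QKI7 footprints, the group where they were higher. At their vector footprint level they would not have been tested. The alternatives kept by SNORD73A and SNORD133 include the fit without a filter. SNORD101 rose by 0.83 ± 0.12 (limma, adjusted p = 0.00491), SNORD5, within TAF1D, by 0.84, and SNORD127, within PRPF39, by 0.50 on the log2 scale.

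SNORD10, a guide of U6 RNA methylation within EIF4A1 (chr17:7576811-7576958), was the single member lower in QKI7 footprints. It was at 1.58 and 2.04 TPM in QKI7 footprints, against 5.77 and 5.05 TPM in vector footprints (limma, log2 change -1.19 ± 0.11, adjusted p = 0.000815), and the groups did not overlap. The other U6 guides lay below the minimum for testing, the highest being SNORD94 at 0.65 and 2.02 TPM in QKI7 footprints, against 0.37 and 0.36 TPM in vector footprints.

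The number of calls rested in part on the inputs. All 8 libraries shared 1 estimate of spread per entry, and an entry listed at 0 in all 4 inputs has no spread there: 9 of the 28 tested members of this kind were called in footprints. Fitting the 4 footprint libraries alone, an alternative planned as such, called 6 members, 5 of which were among the 17: SNORD66, SNORD133, SNORD3A, SNORD2 and SNORD73A. The sixth was SNORD76, a 28S guide within GAS5, at 6.90 and 7.17 TPM in QKI7 footprints, against 1.12 and 1.43 TPM in vector footprints (limma, adjusted p = 0.0233, and 0.0703 in the fit of all groups). SNORD10 came to an adjusted p of 0.0547 in footprints alone.

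In inputs, 4 of the 69 tested members were higher and 5 lower in QKI7 cells, with backgrounds of 39.1% higher and 5.48% lower. Their median log2 change was 0.00, against 0.15 over all entries. Median-of-ratios scaling took the latter to -0.02 and left 1 member higher and 5 lower, beside 899 and 1174 of 5771 entries. Scaling to the spike-ins gave 2 higher and 5 lower, beside 1474 and 313 of 5799 entries. Quantile normalization gave 2 and 4, beside 1090 and 907 of 5806 entries. The rescaled TPM gave 2 and 1 among 152 members, beside 15 and 87 of 16831 entries. U3 rose by 0.46 ± 0.10 on the log2 scale (limma, adjusted p = 0.00936). This call was lost under median-of-ratios, spike-in and rescaled values and without the first vector input library (adjusted p = 0.0509).

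The other input calls concerned levels of a few TPM. SNORD57, an 18S guide within NOP56 (chr20:2656939-2657010), was at 1.69 and 4.38 TPM in QKI7 inputs and listed at 0 in both vector inputs (limma, adjusted p = 0.00759). SNORD4A went undetected in the QKI7 inputs (0 TPM in each), against 0.86 and 1.51 TPM in vector inputs (limma, adjusted p = 0.00499). These 2 calls held in each fit that left out 1 library.

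SNORD32A, an 18S guide within RPL13A, was at 0.40 and 0 TPM in QKI7 inputs, against 3.68 and 2.15 TPM in vector inputs, and SNORD68, an 18S guide within RPL13, at 0 and 1.75 TPM, against 4.72 and 4.01 TPM. Their log2 changes were -1.70 ± 0.41 and -1.69 ± 0.39 (limma, adjusted p = 0.0126 and 0.0106). SNORD63 fell by 1.14 and SNORD58A, a 28S guide within RPL17, by 1.04 on the log2 scale. Of the 8 fits that left out 1 library, the call was lost in 3 for SNORD63 (log2 change -1.75 to -0.52), in 2 each for SNORD58A (-1.38 to -0.69) and SNORD32A (-1.98 to -1.41), and in 1 for SNORD68 (-2.42 to -0.96). SNORD33 rose by 0.86 and SNORD10 by 0.31, and these calls were lost in 6 and in 5 of the 8 fits that left out 1 library. In inputs, SNORD33 was at 5.08 and 3.65 TPM in QKI7 cells, against 1.49 and 2.44 TPM in vector cells. SNORD10 was at 0.42 and 0.22 TPM in QKI7 inputs, against 0 and 0.12 TPM in vector inputs. Ribosomal RNA in inputs differed between the constructs as well, at 470.0 and 1029 TPM in QKI7 inputs, against 263.9 and 289.5 TPM in vector inputs, and its part in these values was not tested.

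The interaction term compares the QKI7 change in footprints with that in inputs; for mRNA it is read as translation efficiency, which has no meaning for snoRNAs. It was positive for 18 and negative for 2 of the 69 at an adjusted p under 0.05 (limma), with backgrounds of 3.57% and 21.6%. The members' median was 0.62, against -0.16 over all entries. The background depended on the scaling. Median-of-ratios scaling gave 17 positive and 2 negative calls among the 69, beside 920 and 335 of 5771 entries. It took the median of all entries to 0.06 and that of the members to 0.78. Rescaled TPM gave 6 positive and 5 negative calls among 152 members, beside 106 and 186 of 16831 entries. Quantile normalization gave 12 and 3 among the 69, beside 459 and 629 of 5806 entries. For 9 of the 18, the inputs were listed at 0 throughout, so the interaction repeats the footprint change. SNORD32A had the largest value, 3.33 ± 0.58 (limma, adjusted p = 0.0117), from 8.90 and 6.60 TPM in QKI7 footprints, against 0.73 and 3.52 TPM in vector footprints, and the opposite order in inputs. SNORD57 had the lowest, -2.75 ± 0.58 (limma, adjusted p = 0.0177), with 3.59 and 1.07 TPM in QKI7 footprints, against 3.56 and 5.56 TPM in vector footprints.

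In footprints, the genes that contain the snoRNAs were mostly lower by sign in QKI7 cells, whether the snoRNA itself was higher or lower. A containing gene was found for 167 of the 178, and 58 of the 69 tested members lay within 32 tested host genes. By sign, the snoRNA was higher and its host lower in QKI7 footprints for 45 of the 58, both were higher for 6, both lower for 7 and the remaining order for 0. These pairs repeat hosts, GAS5 8 times and SNHG1, whose own log2 change was -0.01, 6 times. Counted once, 27 of the 32 hosts were lower by sign, against 41.5% of all entries. The median log2 change was 0.58 over these snoRNAs and -0.22 over their hosts. Of the hosts, 8 were called lower and 0 higher (limma; 17 and 0 at an unadjusted p under 0.05), beside the 4.6% lower and 3.6% higher of all entries, and 5 of the 15 called-higher snoRNAs with a tested host lay within a host called lower. Across the 58 pairs, some of which share a host, Pearson's r was 0.04 and Spearman's rho 0.04.

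RPS12, which encodes a protein of the small ribosomal subunit and contains SNORD101, was at 10.97 and 10.51 TPM in QKI7 footprints, against 23.8 and 23.6 TPM in vector footprints (limma, log2 change -1.07, adjusted p = 0.00366). GAS5, the non-coding host of SNORD47 and SNORD74, was at 1.64 and 1.82 TPM in QKI7 footprints, against 3.61 and 3.72 TPM in vector footprints (-0.77, adjusted p = 0.00165). RPS3A, also a gene of a small-subunit protein, fell by 0.56 (limma, adjusted p = 0.00604). Other hosts did not pass: NCL, the gene of nucleolin, was at 3.98 and 4.03 TPM in QKI7 footprints, against 4.67 and 4.65 TPM in vector footprints, and EIF4A2 at 3.07 and 2.92 TPM, against 3.46 and 3.81 TPM.

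In inputs, GAS5 was at 6.77 and 6.94 TPM in QKI7 cells, against 6.18 and 7.36 TPM in vector cells, and RPS12 at 6.43 and 4.45 TPM, against 5.75 and 6.71 TPM; both overlapped between constructs. Host lines in the table count annotated transcripts, and the labels do not say whether strand was used to separate reads of a snoRNA from those of its unspliced host.

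**Figure D3:**
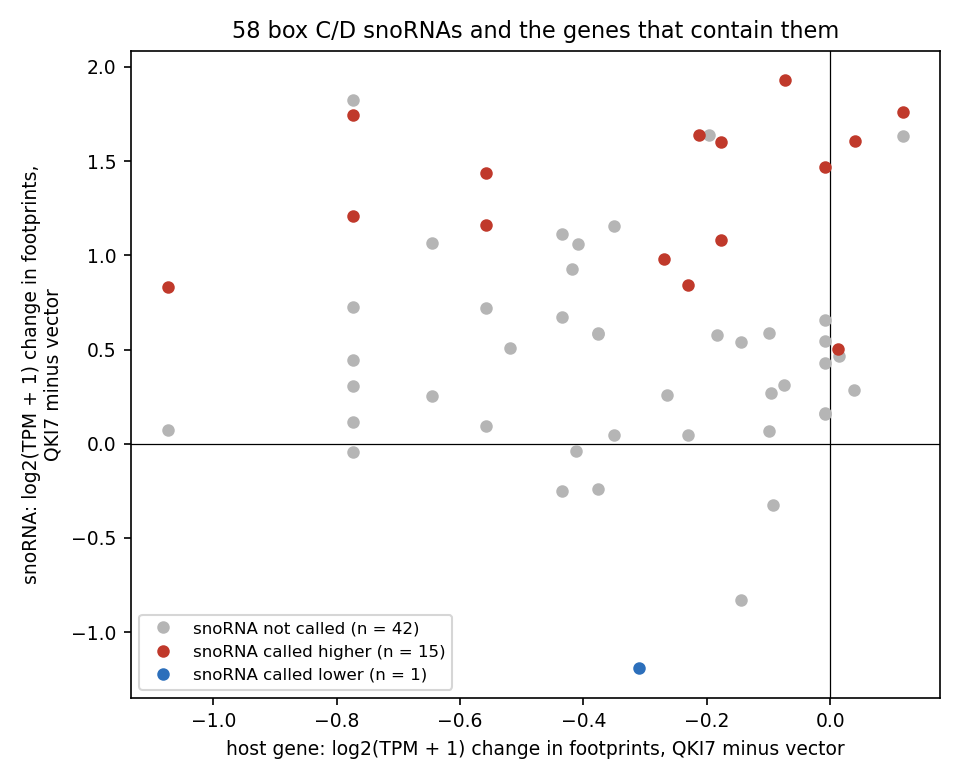
Log2(TPM + 1) change in footprints, QKI7 minus vector, of 58 box C/D snoRNAs (y) against that of the gene containing each (x); 2 footprint libraries per construct lie behind each change. Most points lie in the upper left, where the snoRNA is higher and its host lower in QKI7 footprints (45 of 58), and the lower right holds 0.

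Within SNHG1 and within GAS5, footprint TPM differed far more among the snoRNAs than between the constructs. SNHG1 contains 8 members, and over the 4 footprint libraries SNORD31 averaged 314.7 TPM, or 83.3% of their total, against 0.78 TPM for SNORD22, a ratio of 403. SNORD31 is 68 nt and SNORD22 126 nt long, and the treatment of short transcripts in TPM is not stated. The part of length in such ratios was not tested. The middle members SNORD30, SNORD27, SNORD25, SNORD29 and SNORD26 averaged 28.5, 11.3, 8.01, 7.07 and 6.20 TPM, in this order. SNHG1 itself was at 0.73 and 1.22 TPM in QKI7 footprints, against 1.11 and 0.84 TPM in vector footprints.

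GAS5 contains 10 members, spread more evenly. SNORD80 averaged 25.8, SNORD79 24.3, SNORD75 19.0 and SNORD74 18.3 TPM over the 4 footprint libraries, while SNORD81 averaged 0.91 and SNORD77 0.28 TPM. The ratio between the highest and the lowest was 92.3. QKI7 and vector footprints overlapped for SNORD80, SNORD79 and SNORD75 and did not for SNORD74, SNORD76, SNORD44 and SNORD47. Whether the members of this host differ in their change was not tested. Among the 5 hosts of a pair of members that together averaged 5 TPM or more, the higher member held 57.9% to 97.7% of the signal: SNORD50A 97.7% in SNHG5, SNORD101 95.0% in RPS12, SNORD82 92.2% in NCL, SNORD48 89.6% in SNHG32 and SNORD5 57.9% in TAF1D.

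**Figure D4:**
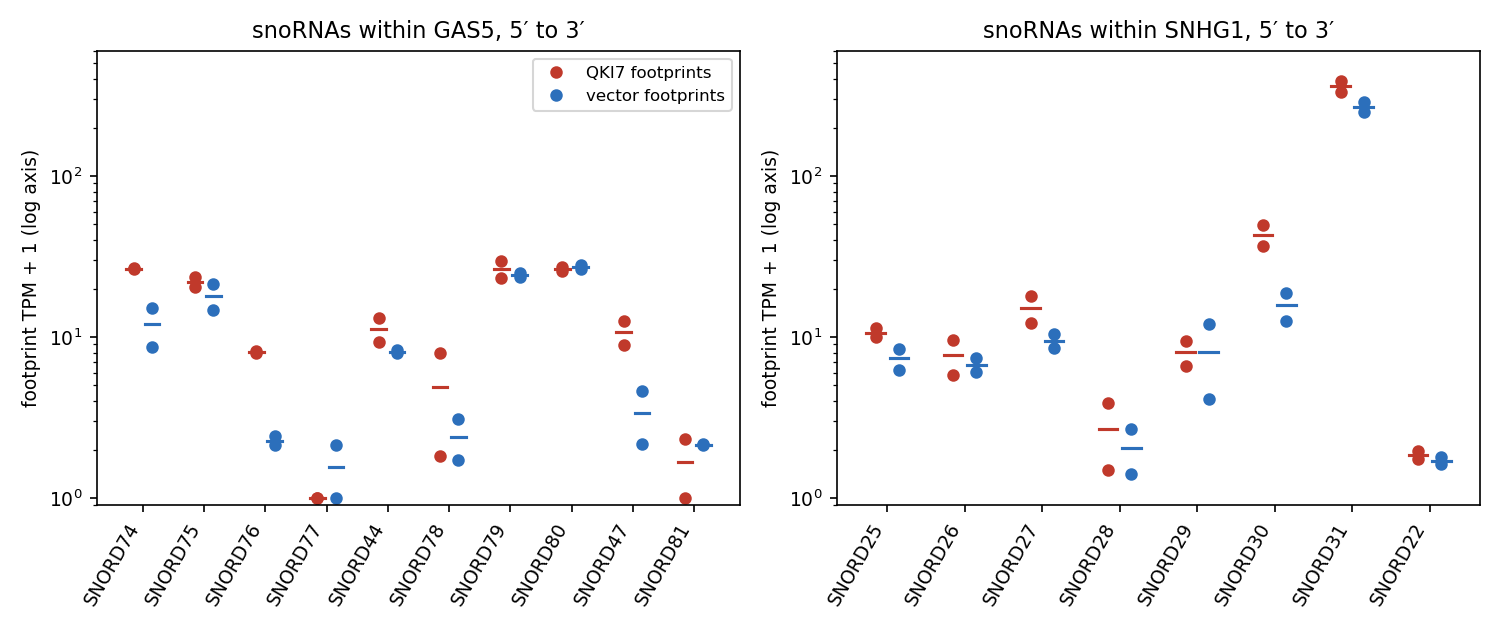
Footprint TPM + 1 (y, log axis) of the box C/D snoRNAs within GAS5 (left) and SNHG1 (right), ordered 5′ to 3′ along the host; points are libraries, red QKI7 and blue vector, and lines are the group means. SNORD31 stands near 315 TPM on average within SNHG1 while SNORD22 stays below 1 TPM, and SNORD80, SNORD79 and SNORD75 are at similar levels in both constructs.

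By kind of host, 21 of 40 members within genes of ribosomal proteins were tested, with 5 higher, 0 lower (limma; 12 and 1 unadjusted) and a median of 0.59 in QKI7 footprints. Of 43 members within SNHG genes, GAS5 or ZFAS1, 25 were tested, with 3 higher, 0 lower (limma; 12 and 0 unadjusted) and a median of 0.44. The proteins of the particle did not pass in either QKI7 comparison: 0 of 4 core proteins and 0 of 6 tested assembly factors were called by limma in footprints or in inputs. At an unadjusted p under 0.05, 1 core protein was lower in footprints, and 2 assembly factors were lower there, with 1 higher and 1 lower in inputs. NOP58, for example, was at 47.7 and 48.3 TPM in QKI7 inputs, against 41.9 and 46.9 TPM in vector inputs. Of 6 tested factors of the nuclear exosome and of snoRNA 3′ end processing, 0 were higher in QKI7 footprints (limma, also 0 unadjusted) and 5 in inputs, beside the input background of higher calls given above. EXOSC3, an exosome subunit, was at 3.10 and 2.66 TPM in QKI7 inputs, against 2.07 and 1.76 TPM in vector inputs (limma, log2 change 0.41, adjusted p = 0.00403), and PARN, a deadenylase that trims snoRNA ends, at 3.14 and 3.03 TPM, against 1.94 and 2.50 TPM (0.35, adjusted p = 0.0102).

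Other small RNAs of the nucleolus and Cajal body shifted the same way in footprints. Box H/ACA snoRNAs, which guide pseudouridylation, summed to 4489 and 4618 TPM in QKI7 footprints, against 2224 and 2242 TPM in vector footprints, a ratio of 2.04. Of their 79 tested entries 47 were higher and 0 lower (limma; 57 and 1 unadjusted), with a median log2 change of 0.82. Of 19 tested Cajal body RNAs 8 were higher and 0 lower (limma; 10 and 1 unadjusted), with a median of 0.57. The rise was not particular to these classes. 7SL RNA was at 649.2 and 640.9 TPM in QKI7 footprints, against 501.5 and 518.0 TPM in vector footprints, a ratio of 1.27. Spliceosomal RNAs were at 14568 and 15053 TPM in QKI7 footprints, against 13423 and 13062 TPM in vector footprints, a ratio of 1.12. The 5140 tested protein-coding genes had 97 higher and 252 lower calls and a median of 0.01. Whether box C/D snoRNAs differ from these classes in their change was not tested.

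The members below the minimum included snoRNAs of imprinted loci outside the repeat families. Of these 6, SNORD107, SNORD108 and SNORD112 were listed at 0 in all 8 libraries, SNORD109A and SNORD109B, identical in the table, were above 0 only in 1 QKI7 input at 0.27 TPM, and SNORD64 did not exceed 1.08 TPM. SNORD132, within BUB1 and seen in inputs only, was at 1.33 and 2.28 TPM in QKI7 inputs, against 0.41 and 0.71 TPM in vector inputs, with no overlap.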

How the data were processed

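The authors deposited 1 table of TPM for 26902 entries in 8 libraries of single-end 51 nt reads. STAR, RSEM 1.2.31 and GRCh38 are listed in the submitters' processing notes; strand, annotation and settings are not stated there. Log2(TPM + 1) of entries averaging 1 TPM or more was fitted with limma 3.58.1 in R 4.3.3 (4 group means over all 8 libraries, eBayes with trend, two-sided, Benjamini-Hochberg over all 5806 entries, threshold 0.05). The fit was tested on simulated data. Members and lists were chosen with earlier results of these data known. Named are up to 10 called, non-overlapping members per direction and contrast, the most abundant, the processing snoRNAs, their hosts, and up to 4 per list. Coordinates are RefSeq's (GRCh38.p14), all 178 matched by symbol. A host is the gene whose span contains the snoRNA, without regard to strand, and the highest by TPM where several do. No snoRNA sequence was used here, so motifs within them were not analysed. The labels do not say whether input and footprint libraries of the same number came from 1 sample, and the fit did not pair them. Same-number deviations correlated at -0.09 to 0.13, which shows no shared shift but cannot settle the pairing.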

Additional observations from a re-analysis of the deposited data

Results flagged for a closer look

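For 20 box C/D snoRNAs the QKI7 change in footprints differed from that in inputs by the interaction term of limma (adjusted p under 0.05, all 8 libraries). The values below are the footprint change minus the input change, on the log2(TPM + 1) scale. Where inputs were listed at 0 in all 4 libraries the value equals the footprint change: 1.74 for SNORD47, 1.64 for SNORD2, 1.47 for SNORD30, 1.44 for SNORD38B, 1.16 for SNORD73A, 1.08 for SNORD20, 0.84 for SNORD5, 0.83 for SNORD101 and 0.50 for SNORD127. Where inputs held some signal it was 3.33 for SNORD32A, 2.09 for SNORD4A, 2.06 for SNORD63, 1.96 for SNORD68, 1.85 for SNORD133, 1.63 for SNORD58A, 1.57 for SNORD12C, 1.55 for SNORD74 and 0.86 for SNORD18A. The 2 negative values were -1.51 for SNORD10 and -2.75 for SNORD57.

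SNORD12C, a 28S guide within ZFAS1, was at 4.03 and 6.97 TPM in QKI7 footprints, against 1.55 and 2.60 TPM in vector footprints. Its interaction call was lost in 7 of 8 fits that left out 1 library (highest adjusted p = 0.122), that of SNORD47 in 6, those of SNORD63 and SNORD74 in 5 each, and that of SNORD58A in 2 (highest adjusted p = 0.059). The calls of SNORD32A, SNORD4A, SNORD133, SNORD2, SNORD30 and SNORD10 held in all 8. These fits kept the entries chosen on all 8 libraries, and SNORD133 reached the minimum only through its QKI7 footprints. The call of SNORD133 was lost with a pseudocount of 0.1 and with rescaled TPM (limma, highest adjusted p = 0.326). Of these members, only SNORD2 kept its interaction call in every other alternative as well.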

How the results depend on the processing

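The counts of called members moved with the filter, the pseudocount, the scale and the libraries fitted together. As reported they were 17 in footprints, 9 in inputs, 20 for the interaction, and 61 (QKI7) and 54 (vector) for footprint against input. Without a filter they were 7 in footprints, 4 in inputs and 9 for the interaction, and with a minimum mean of 5 TPM, which tests fewer members, 11, 2, 5, 21 and 21. A pseudocount of 0.1 gave 4 in inputs and 8 for the interaction. TPM rescaled without ribosomal, 7SL and spliceosomal RNA and spike-ins gave 3 in inputs, 11 for the interaction, and 106 (QKI7) and 83 (vector) for footprint against input, among 152 members. The footprint-against-input background was then 1290 higher and 12705 lower of 16831 entries in QKI7 cells, and 1520 and 11956 in vector cells. Median-of-ratios scaling gave 96 and 87 there, among 108 members. Its background was 2211 higher and 752 lower of 3399 entries in QKI7 cells, and 2201 and 798 in vector cells. Both scalings change which members pass the minimum. Fitted alone, footprints gave 6. Leaving out 1 library gave 13 to 21 in footprints, 5 to 12 in inputs, 10 to 21 for the interaction, and 58 to 65 (QKI7) and 51 to 60 (vector) for footprint against input. The lowest input and interaction counts, 5 and 10, came without the first vector input library, and without the first QKI7 footprint library the interaction count was 12. With the replicate block they were 22, 8, 20, 61 and 55, so the pairing moved none by over 1.5 times. For named members, 0 values changed sign. Calls were lost in 45 of 192 alternative values in footprints, 58 of 164 in inputs, 51 of 180 for the interaction and 0 of 270 in each footprint-against-input comparison. In the last, members such as SNORD50A and SNORD31 passed the minimum only through footprints, and SNORD141A and SNORD141B only through inputs. Their direction was fixed in advance, so the 0 of 270 is no measure of stability. Where not stated, the cause of a lost call was not tested. Read depth is unknown, so a value of 0 bounds nothing.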
